A study of Mus musculus with 29 samples.

Results

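The clonotypes described here are T cell receptor (TCR) alpha chains that turned up in 4 or more of the 10 numbered units of a mouse melanoma study. A clonotype was 1 combination of V segment name, J segment name and CDR3 amino acid sequence with a productive reading frame, and it was selected on its own counts: a count above 0 in 4 or more numbers, with the brain and ovary samples of a number joined. The rule found 131 clonotypes of 21959 productive TRA clonotypes (0.597%), and they held 43976 of 319742 TRA counts (13.8%). In comparison, 20499 clonotypes were found in 1 number, 1101 in 2 and 228 in 3. The shared set was therefore chosen by the same counts that give its abundance, so its size and its summed share are descriptions and carry no test.

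The samples were metastases grown in mouse brain and ovary from a melanoma with mutated Braf, whose TCR transcripts were sequenced from RNA. The 5 treatments were untreated at day 0 (titled Vehicle, numbers 3 and 7), an anti-PD-L1 lead-in at day 0 (numbers 10 and 11), trametinib, a MEK inhibitor, at day 3 (numbers 8 and 13), trametinib with anti-PD-L1 and no lead-in at day 3 (called concurrent here, numbers 1 and 6), and the lead-in of anti-PD-L1 continued with both agents at day 3 (called lead-in combination here, numbers 12 and 14). Brain was sampled in all 10 numbers (19 samples, 2 parts each except number 7) and ovary in numbers 3, 10, 13, 1 and 12 (10 samples). No label explains the parts, or states if a number stands for 1 animal. The p-values below therefore measure the spread between numbers only, and each SD names what it is taken over. The strain, the age of the mice and the name of the tumour line were not in the labels. TRA totals ran from 230 counts (brain, number 10, part 1) to 51549 (ovary, number 10, part 1), and the labels leave unsaid if 1 count is a read or a molecule. Intervals below are exact Clopper-Pearson intervals at 95% and cover counting error only. In bulk RNA, more T cells of a clone and more receptor RNA per cell cannot be told apart.

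The alpha chain of a TCR is made by joining 1 V segment to 1 J segment, with bases trimmed from both ends and others added between them. The join forms CDR3, the loop that lies over the peptide or lipid presented to the T cell. Chains that need little trimming and few added bases are made again and again in different animals, and such sequences are known as public clonotypes. Some T cell lineages use a fixed alpha chain: invariant natural killer T (NKT) cells, which see lipids on CD1d, join TRAV11 copies to TRAJ18, and mucosal-associated invariant T (MAIT) cells, which see vitamin B metabolites on MR1, join TRAV1 to TRAJ33.

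The CDR3 sequences below are those the results turn on, as deposited, from the conserved cysteine to the last residue of the loop. They carry the TRAJ23, TRAJ22, TRAJ56, TRAJ16, TRAJ34, TRAJ12, TRAJ24 and TRAJ33 clonotypes whose values are given later.
TRAJ23 under 6 V names: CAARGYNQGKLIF
TRAJ23 under 4 V names: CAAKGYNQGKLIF
TRAJ23 with TRAV6N-7: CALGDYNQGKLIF
TRAJ22 under 4 V names: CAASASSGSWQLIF
TRAJ22 under 3 V names: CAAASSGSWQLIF
TRAJ56 under 3 V names: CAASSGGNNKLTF
TRAJ16 with TRAV14-1 or TRAV14N-1: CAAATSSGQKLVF
TRAJ34 with TRAV6-6 or TRAV6D-6: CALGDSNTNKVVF
TRAJ12 with TRAV10: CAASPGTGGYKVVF
TRAJ24 with TRAV8-1 or TRAV8D-1: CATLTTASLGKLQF
TRAJ33 with TRAV1: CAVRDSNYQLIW
The last 8 residues of all 3 TRAJ23 sequences are identical (YNQGKLIF), as are the last 9 of both TRAJ22 sequences (SSGSWQLIF), and these stretches are the J-encoded end most common among one-number clonotypes. The residues that vary lie before these stretches, where V and J meet. V names joined by "or" are those that the deposited table gives together for 1 row. All 51 V segment names and all 28 J segment names in the shared set were found in the RefSeq gene table for GRCm38.p6, which was used for names alone.

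CDR3 of the shared clonotypes ran from 12 to 17 residues with a mean of 13.44 ± 0.95 (SD over 131 clonotypes, median 13). CDR3 of the one-number clonotypes ran from 5 to 59 with a mean of 13.64 ± 1.51 (n = 20499, median 14), in a far larger set, and a range widens with set size. One-number clonotypes of 10 counts or more ran from 6 to 20 (SD 1.38, n = 3413). Clonotypes of 3 numbers, just outside the threshold, ran from 10 to 16 (SD 1.01, n = 228). Loops of 13 residues or fewer made up 61.1% of the shared set and 46.2% of the one-number set. Loops of 16 residues or more made up 2.29% (3 clonotypes) and 8.26%. The difference in mean between the shared and one-number sets, fewer by 0.197 residues, was small beside the SD of either set. It reversed when each clonotype was weighted by its counts, to 0.0720 residues more in the shared set. The shared clonotypes with the highest counts include the invariant NKT chains of 15 residues. Within samples, the shared clonotypes had the lower mean length in 21 of 29 and the higher in 8.

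The clearer difference was in the residues that neither segment end accounts for. For each V name and each J name the most common residues at the start or end of CDR3 were read from the one-number clonotypes, and the residues of a CDR3 that matched neither end were counted. A mismatch inside an end leaves all residues beyond it counted. In the shared set it does so for the 3 clonotypes of 7 to 10 such residues and for the 2 of 5. The shared clonotypes had 1.57 ± 1.39 such residues (median 1, n = 131) and the one-number clonotypes 2.70 ± 2.09 (median 2, n = 20210 with both ends defined). At most 1 such residue was found in 59.5% of the shared set and in 25.0% of the one-number set, and 3 or more in 9.16% and 38.8%. Abundance moved with this measure: one-number clonotypes of 10 counts or more had 2.10 ± 1.13 (n = 3409), which lowered the difference to 0.530 from 1.12 residues. Within each of the 29 samples the shared clonotypes had fewer such residues than the one-number clonotypes of that sample, by 0.430 to 1.45. The samples draw on the same 131 clonotypes, so they are not separate findings. The value of 1.45 rests on 5 shared clonotypes (brain, number 10, part 1). Values of 8 or more were found in 1.53% of the shared set and in 5.21% of the one-number set, and they raise the one-number mean more. The part of such mismatches, of abundance and of wrongly read residues in the difference between the sets was not tested.

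**Figure D1:**
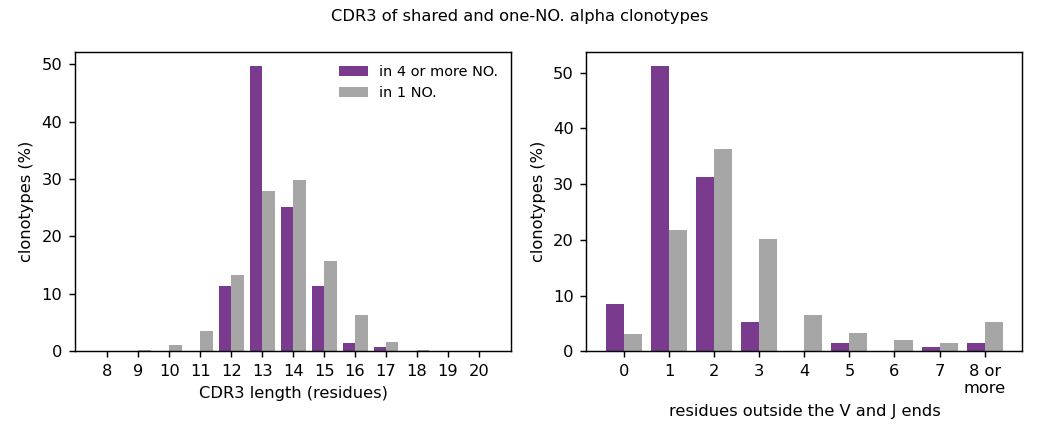
CDR3 length in residues (left, 8 to 20 shown) and residues outside the V and J ends (right, last bar 8 or more) for 131 shared clonotypes (purple) and the clonotypes found in 1 number (grey), each as a percent of its set. Shared clonotypes pile up at 13 residues and at 1 residue outside the ends (51.1% against 21.8%).

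Neither measure moved steadily with the number of units that held a clonotype. Mean length was 13.37 in clonotypes of 3 numbers, 13.32 in those of 4, 13.48 in those of 5, 13.50 in those of 6 and 13.87 in those of 7 or more. Mean residues outside the ends were 1.79 in clonotypes of 2 numbers, 1.79 in those of 3, 1.70 in those of 4, 1.28 in those of 5, 1.5 in those of 6 and 1.53 in those of 7 or more. The clonotypes just inside the threshold (71 in 4 numbers, median total 48 counts) and those just outside it (228 in 3 numbers, median total 22 counts) were thus close in both measures.

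A few J segments carried much of the shared set. TRAJ22 and TRAJ23 each formed 25 clonotypes (19.1% of the set), against 5.42% and 5.76% of the one-number clonotypes, and together they made 38.2% against 11.2%. TRAJ18 formed 11 (8.40% against 2.38%), TRAJ56 formed 8 (6.11% against 1.62%), TRAJ9 formed 8 (6.11% against 3.04%) and TRAJ27 formed 7 (5.34% against 4.11%). Among segments of at least 5% of either set, TRAJ31 alone went the other way, with 4 clonotypes (3.05% against 5.15%). Less frequent segments were also below, among them TRAJ26 (0% against 4.53%), TRAJ49 (0.763% against 3.74%) and TRAJ40 (0% against 3.04%). In all, 28 of 41 J names occurred.

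Within each J segment of 5 or more shared clonotypes, these had fewer residues outside the ends, while length went either way. Of the other J segments, TRAJ34 (3 against 2.56) and TRAJ35 (5 against 3.15, 1 clonotype) had more. Each holds 1 TRAV9N-2 clonotype whose CDR3 starts with CAVS, where the V end of that name was read as CVLS. This mismatch left 5 residues counted in each of them and so raised both values. With one-number clonotypes weighted to the J usage of the shared set, their means were 13.67 residues and 2.73 outside the ends. The 7 TRAJ27 clonotypes averaged 13.9 residues against 13.4. The 8 TRAJ56 clonotypes averaged 12.9 residues, where one-number TRAJ56 clonotypes averaged 14.6. The 25 TRAJ22 clonotypes differed little in length (13.7 against 13.8) but had 1.12 residues outside the ends against 2.50. The 25 TRAJ23 clonotypes had 2.36 against 3.20, and the 11 TRAJ18 clonotypes had the same mean length as their one-number counterparts (14.6 in both) with 1.91 against 3.02. TRAJ30 had the fewest among J segments with 5 or more shared clonotypes, 0.667 against 2.46.

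V families differed less from the one-number set in percentage points, although TRAV11 differed more than any of these J segments as a ratio. The TRAV14 family, several near-identical copies whose CDR3 starts most often with CAAS, formed 28 shared clonotypes (21.4% against 13.8%). The TRAV7 family also formed 28 (21.4% against 19.8%), but 20 of them were of TRAV7D-2 (15.3% against 5.37%). TRAV11 formed 8 (6.11% against 0.673%) and TRAV3N-3 formed 7 (5.34% against 1.79%). The TRAV6, TRAV13 and TRAV8 families were below their share of one-number clonotypes, with 10 (7.63% against 12.99%), 4 (3.05% against 6.83%) and 2 (1.53% against 5.11%). The most frequent pair was TRAV7D-2 with TRAJ23, which formed 8 of the 131 clonotypes, out of 155 productive clonotypes of that pair.

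**Figure D2:**
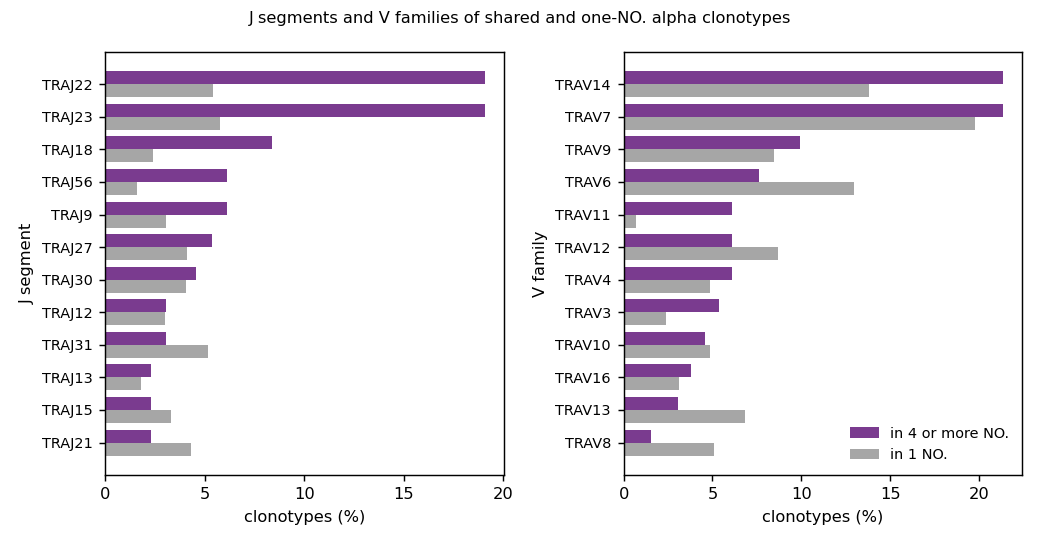
Percent of clonotypes that use each J segment (left) and V family (right), for the shared set (purple, 131 clonotypes) and the clonotypes found in 1 number (grey). The 12 most frequent of the shared set are drawn, and TRAJ22 and TRAJ23 stand out at 19.1% each.

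The same loop often came with several V names. The 131 clonotypes hold 104 different pairs of J segment and CDR3, and 15 of these pairs occurred under 2 or more V names (42 clonotypes), 7 under 3 or more (26 clonotypes). The leading TRAJ23 loop, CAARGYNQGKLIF, occurred with TRAV7D-2, TRAV7-2 and 4 names of the TRAV14 family, for 13723 counts in 9 numbers. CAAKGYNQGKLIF had 4 V names and 927 counts, and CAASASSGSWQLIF had 4 names of the TRAV14 family and 568 counts. Another 2 TRAJ56 loops were found under the same 3 TRAV14 names, with 699 counts and, for the printed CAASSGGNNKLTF, 256 counts. These clonotypes share a loop and are not independent of each other, and copies of 1 V family can be hard to separate in a short read: how reads were split among V names is not stated in the labels. With V names ignored, 413 pairs of J segment and CDR3 passed the same threshold.

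Shared clonotypes also lay close to each other in sequence: 73 of 131 had another shared clonotype at 1 substitution. Of 42 such pairs with the same V and J names, 10 had a count ratio over 20. The TRAV7D-2 form of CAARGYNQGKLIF, with 12223 counts, had neighbours at R4G (6 counts), F13S (8 counts), K10R (18 counts), R4S (77 counts) and R4K (239 counts), where positions are counted from 1 at the conserved cysteine and the residue of the larger clonotype comes first. F13S is the only shared clonotype that does not end in F or W. Without clonotypes 1 substitution from one of the same V and J over 20 times larger, 122 of 131 were left. Whether the small neighbours are sequencing or amplification errors was not tested.

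Sharing moved with how deeply a number was sampled. The numbers with both organs held 81 to 103 of the 131 clonotypes: number 10 held 103 of them with 81877 TRA counts, number 1 held 102 with 51921, number 12 held 91 with 69392, number 3 held 89 with 59988 and number 13 held 81 with 30058. The brain-only numbers held fewer: number 14 held 61 with 13226 counts, number 11 held 57 with 8074, number 6 held 38 with 3616, number 8 held 14 with 955 and number 7 held 12 with 635. Every brain-only number was thus below every number with both organs in shared clonotypes and in depth. By brain samples alone 31 clonotypes reached 4 numbers, and 11 did so after each number was thinned to 635 counts. A clonotype with no count in number 7 could still hold up to 0.472% of that sample.

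Most shared clonotypes were small. Totals over all samples ran from 6 to 12223 counts with a median of 72, against a median of 3 for one-number clonotypes, and 71 of their 648 occurrences in a number (10.96%) rested on 1 count. In 56 of 131 the share was under 0.1% of TRA counts in every number. At least 1% of a number was reached by 11 of 131 (8.40%) and by 59 of the 20499 one-number clonotypes (0.288%). The median clonotype had 50% of its counts in its richest number.

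The shared clonotypes were spread over the treatments. All 5 treatments held 33 of them, 4 treatments held 64, 3 held 32 and 2 held 2, and none was found in 1 treatment alone, which 4 numbers from treatments of 2 numbers each do not allow. Found in all 5 numbers with both organs were 24, and in those numbers alone 27.

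**Figure D3:**
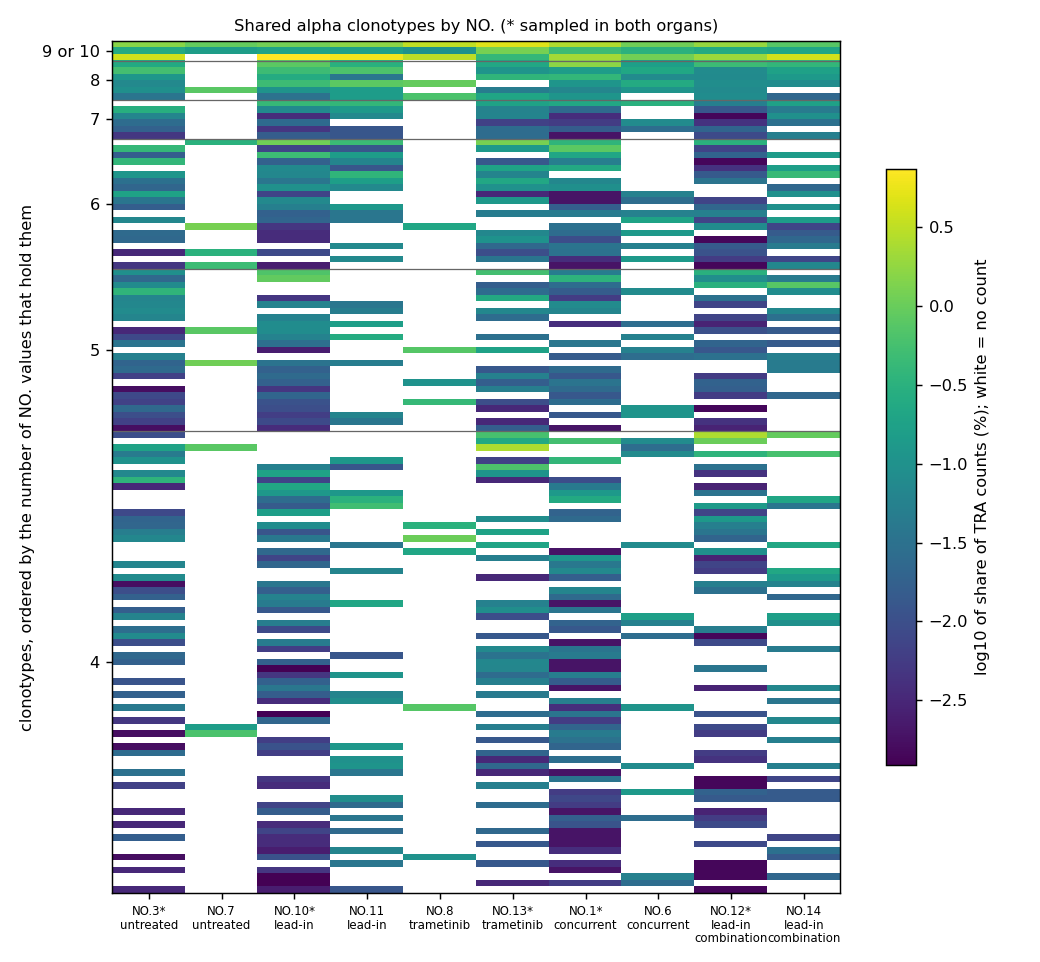
Each row is 1 of the 131 shared clonotypes, each column 1 number in order of treatment, and colour is log10 of the clonotype's percent of that number's TRA counts (white for no count). The rows of TRAV11N with TRAJ18 and TRAV7D-2 with TRAJ23 at the top are the brightest on average, and numbers 7 and 8 are mostly white at 12 and 14 clonotypes.

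Only invariant NKT chains were found in all 10 numbers. The loop of 15 residues with TRAV11N and TRAJ18 had 6368 counts and a count in 29 of 29 samples. The same loop under the joined name TRAV11 or TRAV11D had 1158 counts, in 10 numbers and 24 samples, and under all 3 copies joined it had 47 counts in 7 numbers. Another 5 shared clonotypes differed from it by 1 residue: G4A under TRAV11N (249 counts, 8 numbers), G4V under TRAV11N (190 counts, 6 numbers), G4A under TRAV11 or TRAV11D (45 counts, 5 numbers), G4V under that name (19 counts, 4 numbers) and L13P (6 counts, 4 numbers). Together 8 of 89 clonotypes of TRAV11 copies with TRAJ18 were in the shared set.

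The summed share of these 8 chains varied widely between brain samples. Untreated brain had 8.82% (95% interval 6.11% to 12.2%, 32 of 363 counts) and 9.46% (6.68% to 12.9%, 35 of 370 counts) in the parts of number 3, but 1.10% (0.444% to 2.26%, 7 of 635 counts) in number 7. Trametinib brain had 2.67% and 3.60% in number 13 and 4.42% and 3.20% in number 8. Lead-in brain had 0.435% and 0.571% in number 10 and 2.48% and 0.387% in number 11. The 4 trametinib samples lay above all 4 lead-in samples, and the untreated numbers lay on either side of them.

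The combinations were at the low end. Concurrent brain had 0.412% and 1.498% in number 1 and 1.24% and 1.72% in number 6, and lead-in combination brain had 0.753% and 0.415% in number 12 and 0.797% and 1.31% in number 14. All 8 samples were below the 4 trametinib samples, of which the lowest was 2.67% (1.70% to 3.97%). With 2 numbers per treatment, the fit across clonotypes given below called neither of the largest NKT chains in any of its 4 brain comparisons.

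Ovary covered a narrower range. The NKT chains made up 1.73% and 2.05% in untreated number 3, 1.29% and 1.77% in lead-in number 10, 6.24% and 7.52% in trametinib number 13, 2.94% and 4.61% in concurrent number 1, and 3.47% and 2.10% in lead-in combination number 12. Trametinib was highest in ovary, with 1 number behind each treatment, whereas in brain number 3 of the untreated group was highest. Both brain parts were below both ovary parts of the same number in numbers 1, 10, 12 and 13, and above both in number 3.

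The largest shared clonotype was TRAV7D-2 with TRAJ23 and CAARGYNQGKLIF, at 12223 counts in 9 numbers and 27 samples. Its share of a number was 7.41% in lead-in number 10 and 6.22% in lead-in number 11, then 4.14% in number 14, 4.001% in number 3, 3.14% in number 8, 2.20% in number 1, 1.97% in number 12, 1.16% in number 6 and 0.399% in number 13. Number 7 had none. Both lead-in numbers were at the top of this order, which joins organs: number 10 is mostly ovary, and numbers 6, 8, 11 and 14 are brain alone. In brain alone, parts summed, number 11 had 6.22%, number 14 had 4.14%, number 12 had 3.70%, number 1 had 3.65%, number 10 had 3.44%, number 3 had 3.27%, number 8 had 3.14%, number 6 had 1.16% and number 13 had 0.327%. The trametinib numbers 8 and 13 lay far apart in both orders.

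With its other 5 V names added, this loop made up 3.48% and 5.14% of brain counts in lead-in number 10 and 7.95% and 3.02% in number 11. Untreated brain had 0 of 363 counts and 7.30% (4.86% to 10.4%, 27 of 370 counts) in the parts of number 3 and 0 of 635 counts in number 7, where the zeros allow shares of up to 0.826% and 0.472%. With counts taken as independent of each other, the parts of number 3 differed beyond counting error, although they carry the same label and similar depth. Trametinib brain had 0.695% and 0.750% in number 13 and 3.93% and 1.74% in number 8.

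Lead-in combination brain had 4.81% and 3.57% in number 12 and 3.60% and 5.84% in number 14, and concurrent brain had 3.42% and 4.14% in number 1 and 1.77% and 1.09% in number 6. The combinations overlapped here (3.57% to 5.84% against 1.09% to 4.14%). In ovary the loop had 8.12% and 8.26% in lead-in number 10, 4.72% and 4.69% in untreated number 3, 3.50% and 1.05% in concurrent number 1, 1.18% and 1.71% in lead-in combination number 12, and 0.6246% and 0.374% in trametinib number 13. The order of the ovary numbers for this loop put lead-in first and trametinib last, where the NKT chains had trametinib first and, by mean, lead-in last.

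**Figure D4:**
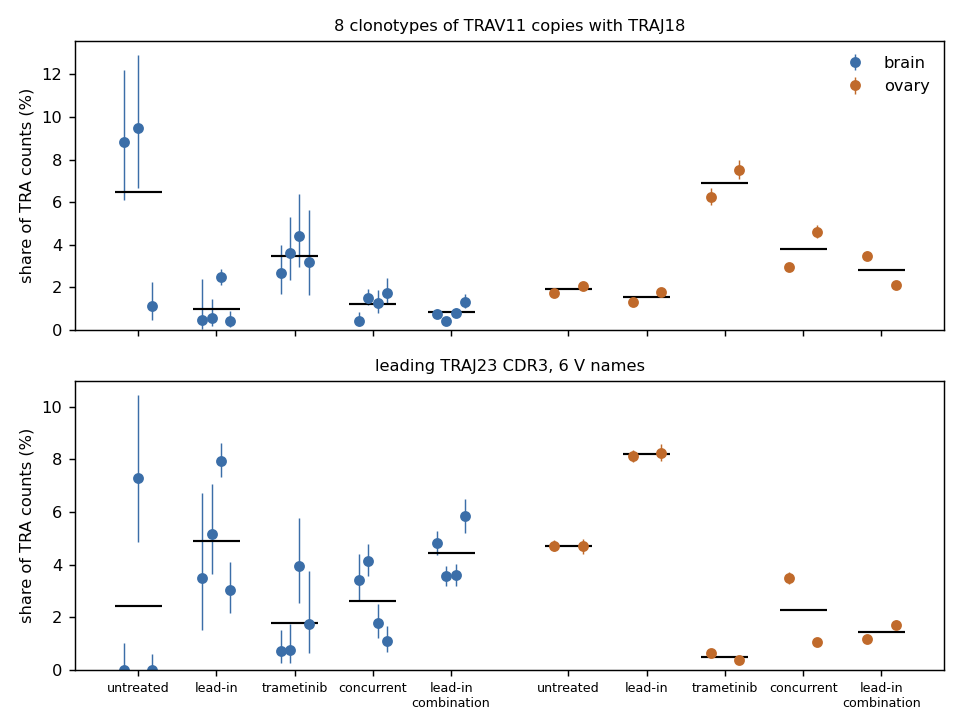
Percent of TRA counts per sample (points, with exact 95% intervals) held by the 8 shared NKT chains (top) and by the leading TRAJ23 loop under its 6 V names (bottom), by organ and treatment, with the mean of the samples as a black line. NKT chains reach 9.46% in untreated brain and 7.52% in trametinib ovary, and the TRAJ23 loop reaches 8.26% in lead-in ovary.

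Other clonotypes in 8 numbers were smaller. TRAV14-1 or TRAV14N-1 with TRAJ16 and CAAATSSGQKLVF had 2155 counts, and its share ran from 0.166% in number 6 to 1.61% in number 1, with none in numbers 7 and 8. TRAV14-2 or TRAV14N-2 with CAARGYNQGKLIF had 980 counts, up to 0.656% in number 11. TRAV6N-7 with TRAJ23 and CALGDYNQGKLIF had 677 counts, up to 0.397% in number 1. TRAV6-6 or TRAV6D-6 with TRAJ34 and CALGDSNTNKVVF had 268 counts, up to 0.787% in number 7, where that is 5 counts. These clonotypes were absent from 2 numbers each, mostly from numbers 7 and 8, which were the shallowest.

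TRAV14-2 or TRAV14N-2 with TRAJ23 and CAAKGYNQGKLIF had 648 counts in 8 numbers. In lead-in brain, part 2 of number 10 had 2.14% and part 1 none, and part 2 of number 11 had 3.72% and part 1 0.280%. The untreated brain samples and both brain parts of number 13 had none, and number 8 had 1.47% (9 counts) in part 1 and none in part 2. Parts of the same number thus differed as much as treatments did. In ovary it was highest in lead-in number 10 (0.516% and 0.364%).

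Some abundant clonotypes belonged to few numbers. TRAV10 with TRAJ12 and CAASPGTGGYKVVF had 2083 counts in 4 numbers, 1777 of them in number 12 (2.56% of its TRA counts), with 0.945% in number 14, 0.582% in number 13 and 0.0100% in number 3. Both lead-in combination numbers were the highest, and both concurrent numbers had no count. TRAV8-1 or TRAV8D-1 with TRAJ24 and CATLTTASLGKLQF had 872 counts in 4 numbers, 757 of them in number 13 (2.52%), where brain had 2.32% and 3.30% and ovary 2.87% and 2.15%. TRAV10 with TRAJ27 and a loop of 15 residues had 1737 counts in 6 numbers, up to 1.23% in number 13 and 1.12% in number 10.

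The TRAJ22 and TRAJ56 loops with several V names had few counts in most numbers. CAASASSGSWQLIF with TRAV14-2 or TRAV14N-2 had 293 counts in 7 numbers, up to 0.288% in number 3. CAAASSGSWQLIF was found in all 10 numbers if every V name is joined, but its largest form, with TRAV7D-2, had 89 counts in 6 numbers, up to 1.26% in number 7, where that is 8 counts. The larger of the 2 TRAJ56 loops, also of 13 residues, is not the printed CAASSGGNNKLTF. With TRAV14D-3/DV8 or TRAV14N-3 this larger loop had 621 counts in 7 numbers, up to 0.421% in number 10 and 0.384% in number 11.

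The MAIT chain was in the shared set through ovary alone. TRAV1 with TRAJ33 and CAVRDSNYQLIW had 67 counts in 4 numbers, in 7 of 10 ovary samples (0.00267% to 0.132%) and in 0 of 19 brain samples. The zeros allow shares of up to 0.0320% in the deepest brain sample and up to 1.30% in the shallowest, so most brain samples were too shallow to show it at its ovary level.

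Summed over all 131 clonotypes, the share of TRA counts in brain ran from 5.36% (95% interval 4.34% to 6.54%) in number 6 to 20.8% (16.8% to 25.3%) in number 3, with a mean of 10.7% ± 3.60 (SD, n = 19 samples). Untreated brain had 8.82% and 20.8% in number 3 and 7.72% in number 7, lead-in brain had 10.4% and 9.71% in number 10 and 16.1% and 11.8% in number 11, and trametinib brain had 7.76% and 13.04% in number 13 and 13.3% and 9.59% in number 8. Concurrent brain had 8.13% and 10.6% in number 1 and 5.36% and 6.47% in number 6, and lead-in combination brain had 10.4% and 8.49% in number 12 and 10.97% and 13.5% in number 14. Every treatment overlapped every other in brain. Clonotypes of 1 number held 54.3% to 85.0% of the same samples.

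Ovary had 11.1% and 11.6% in untreated number 3, 17.5% and 17.0% in lead-in number 10, 17.97% and 16.8% in trametinib number 13, 15.4% and 11.4% in concurrent number 1, and 12.9% and 11.1% in lead-in combination number 12. Averaged per number, ovary had 14.3% ± 2.87 and brain of the same numbers 10.8% ± 2.28 (SD, n = 5 each). Ovary was higher in 4 of these numbers and lower in number 3 (11.3% against 14.8%). Each number's own counts, ovary included, helped to choose the set. With clonotypes found in 4 or more of the other numbers alone, number 12 turned around (6.37% in ovary, 7.18% in brain), and ovary was higher in numbers 1 (10.9% against 8.22%), 10 (15.7% against 7.70%) and 13 (11.8% against 6.70%). Ovary was also the deeper organ, and at an equal depth of 230 counts a sample was calculated to hold 13.3 ± 2.21 shared clonotypes in ovary and 8.41 ± 2.42 in brain of these numbers (n = 5 each). As a percent of all clonotypes at that depth, these were 9.43% ± 0.715 and 6.78% ± 0.849. Equal depth does not undo the choice of the set, which was made with the full ovary counts. The leading 5 clonotypes carried much of the summed share in both organs: without them ovary had 6.54% and brain of all 10 numbers 5.61%, from 10.5% ± 2.70 (n = 10).

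**Figure D5:**
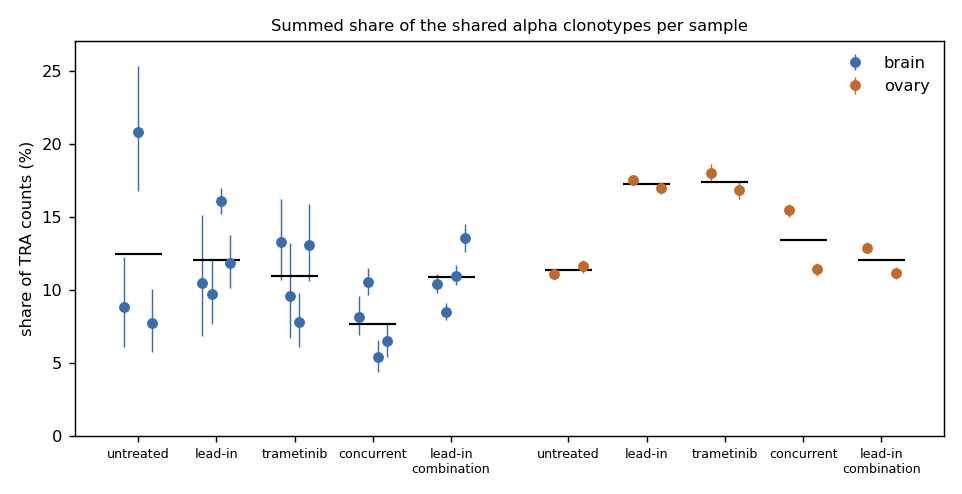
Percent of TRA counts held by the 131 shared clonotypes in each of 29 samples (points, with exact 95% intervals), by organ and treatment, with the mean of the samples as a black line. Brain treatments overlap, from 5.36% to 20.8%, and ovary lies between 11.1% and 17.97%.

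The rule joined the organs of a number, so it did not ask whether a clonotype was seen in both. Of the shared clonotypes in brain of number 3, 92.3% (12 of 13) were also in its ovary. The values were 90.9% (10 of 11) in number 10, 85.0% (17 of 20) in number 13, 78.0% (39 of 50) in number 1 and 56.5% (39 of 69) in number 12. Over all brain clonotypes of these numbers the values were 43.7%, 37.5%, 38.9%, 27.2% and 22.3%. The shared clonotypes were above in all 5, and they also had higher counts than other clonotypes, whose part in this was not tested.

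Organs and treatments were then compared clonotype by clonotype with edgeR's quasi-likelihood test over all TRA clonotypes with enough counts, adjusted by Benjamini-Hochberg. For ovary against brain, 363 clonotypes were tested over 5 numbers in each organ, and 74 of these clonotypes belonged to the shared set. The 5 numbers are 1 from each treatment, so the spread between them in this fit includes any difference between treatments. None was called (0% of those tested), and at an unadjusted p under 0.05 there was 1 clonotype, not in the shared set. Of the 74, 50 had a log2 fold change above 0, with a median of 0.78 against -0.23 over all tested. This filter passes clonotypes through the group where they are high, and ovary counts helped to choose the shared set. The order of the 2 medians also depended on the setting. It turned around with no filter (1.32 against 1.36 over all tested) and with each part its own library (0.85 against 3.15). It held in the other alternatives. DESeq2 called 1 clonotype, which was not in the shared set.

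Numbers pair the organs, so the fit with the number as a block is given beside the unpaired one. TRAV11N with TRAJ18 and the NKT loop was higher in ovary than in brain of the same number in 4 of 5 numbers (for instance 1188 of 51110 counts against 89 of 18282 in number 12). Its log2 fold change was 0.38 ± 2.13 (SE, edgeR adjusted p = 0.992) and 1.01 ± 1.43 with the replicate block (edgeR adjusted p = 0.996). TRAV7D-2 with TRAJ23 and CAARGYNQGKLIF was higher in ovary in 3 of 5 numbers, with a log2 fold change of 0.08 ± 2.06 (edgeR adjusted p = 0.994) and -0.13 ± 1.45 with the block (edgeR adjusted p = 0.996). TRAV14-1 or TRAV14N-1 with TRAJ16 and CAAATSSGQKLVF was higher in ovary in 4 of 5 numbers, with a log2 fold change of 1.68 ± 2.70 (edgeR adjusted p = 0.992) and 1.71 ± 1.14 with the block (edgeR adjusted p = 0.996). Each SE was lower with the block, but it is derived from the fold and the test statistic, so no gain from pairing is read from it. None of the 3 was called in either fit.

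In brain, 31 clonotypes passed the filter, 23 of them in the shared set, and none was called in any of 4 comparisons (0% of those tested in each, and 0 by DESeq2 in each). For lead-in against untreated, 2 shared clonotypes were at an unadjusted p under 0.05, and for trametinib against untreated 1. Concurrent against trametinib had 1 and lead-in combination against concurrent 3, and DESeq2 had 2, 0, 0 and 1. With either tool the counts over all 31 tested were the same as these over the 23. Lead-in and trametinib share the untreated numbers 3 and 7, and trametinib and concurrent numbers each enter a pair of comparisons. The median log2 fold change of the 23 was 1.55 for lead-in against untreated (0.73 over all 31), 0.00 for trametinib against untreated (0.00), 0.82 for concurrent against trametinib (0.49) and 0.30 for lead-in combination against concurrent (0.70).

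The lowest adjusted p among shared clonotypes belonged to TRAV14-2 or TRAV14N-2 with TRAJ23 and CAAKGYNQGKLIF in lead-in against untreated (edgeR adjusted p = 0.127). The untreated brain samples had no count of it, so no fold is given. Without number 13, a trametinib number that enters this comparison only through the shared spread, its edgeR adjusted p became 0.00235, and without number 8 it became 0.0195. In trametinib against untreated its edgeR adjusted p went from 0.621 to 0.0114 without number 13, which had no brain count of it and whose removal leaves number 8 (9 counts, all in part 1) as the only trametinib number. Over all alternatives of lead-in against untreated its adjusted p ran from 0.00235 to 1.

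The joined TRAV11 or TRAV11D name with TRAJ18 and the NKT loop was lower in lead-in than in untreated brain, by a log2 fold change of -3.76 ± 1.70 (edgeR adjusted p = 0.436). The same loop under TRAV11N had 1 and 3 counts in lead-in number 10 and 126 and 5 in number 11. In untreated brain it had 16 and 25 in number 3 and 6 in number 7. The joined name made up 0% to 50% of both names in these samples, and the part of this split in its fold was not tested. Under the joined name, lead-in brain had 0 counts in both parts of number 10 and 14 and 0 in number 11, and untreated brain had 16 and 4 in number 3 and 1 in number 7. Without number 13 its edgeR adjusted p became 0.0369, and over all alternatives it ran from 0.0369 to 1. TRAV10 with TRAJ12 and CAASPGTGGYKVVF had 0.731%, 0.149%, 1.06% and 0.770% in lead-in combination brain and no count in the 4 concurrent samples (edgeR adjusted p = 0.409, from 0.0670 to 0.953 over alternatives).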

How the data were processed

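Libraries came from the QIAseq repertoire kit for RNA, according to the labels' protocols. The deposited data are 1 table made by the authors, of whole-number counts per chain, V name, J name and CDR3, with 29 sample columns and no normalization. For the aligner and clonotype caller, the labels give no name. GRCh38, a human build, is named for these mouse samples in the submitters' processing notes, so no coordinates are given. TRA rows with an unresolved residue (43, 0.0144% of TRA counts) were left out.

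The shared set, its lists and tests were chosen with earlier results of these data known. Shares are counts over a sample's TRA total. A segment end was read where 1 residue held 0.5 or more of at least 20 one-number clonotypes. edgeR 4.0.16 (R 4.3.3) tested clonotypes of 10 counts or more in 2 libraries, with parts of a number summed. The log TRA total was the offset, and calls were made at adjusted p under 0.05. Each SE of a log2 fold change is its absolute value over the square root of the test's F statistic, so it is approximate. The script was tested on simulated counts. DESeq2 1.42.0, TMM, other filters, each number left out and others were alternatives. Python 3.11.15 was used elsewhere.

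Named clonotypes were those in 8 or more numbers, the 8 of highest mean share, TRAV11 copies with TRAJ18, TRAV1 with TRAJ33, loops under 3 or more V names, up to 8 called per comparison, and segments of at least 5% of either set. TRAV7D-2 neighbours at 1 substitution were chosen after their values were seen. The labels pair the organs by number. Over 363 clonotypes, brain and ovary deviations of the same number correlated at 0.844 (number 1), 0.825 (12), 0.647 (13), 0.466 (10) and 0.452 (3). Those of unlike numbers correlated at -0.527 to 0.190. A clonotype of 1 number passes the filter only with 10 counts or more in both organs, so the filter itself favours correlation within a number. Sequences are as deposited. Loops of 15 or more residues are described by their segments and length.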

Additional observations from a re-analysis of the deposited data

Results flagged for a closer look

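Of 32 groups examined for a sample far from the others, 2 had one, where chance alone gives about 1 in 20 groups. In brain, the shared clonotypes of number 3 were longer than its one-number clonotypes by 0.956 residues, while the 10 brain numbers had a median difference of -0.122 and a lowest of -0.229. Part 1 of number 3 held 2 shared clonotypes, both of 15 residues. In lead-in brain, part 1 of number 11 had 2.48% of TRA counts in the 8 shared NKT chains, where the lead-in samples had a median of 0.503% and a lowest of 0.387%.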

How the results depend on the processing

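The number of shared clonotypes, 131, moved most with depth and definition. It was 359 with 3 or more numbers, 60 with 5 or more, 413 with V names ignored, 31 in brain alone and 11 with each number thinned to 635 counts. With a number left out it ran from 80 (without number 1) to 128, with 82 without number 10. The length difference became 0.0720 weighted by counts and ran from -0.212 to -0.0905 with a number left out. The difference in residues outside the ends became -0.530 against one-number clonotypes of 10 counts or more and ran from -1.25 to -1.12. Summed shares without the 5 leading clonotypes were 5.61% in brain and 6.54% in ovary, the ovary share with 5 or more numbers was 10.9%, and with a number left out they ran from 10.1% to 11.05% and from 13.5% to 15.01%. The cause of these moves was not tested. Calls were 1 for lead-in combination against concurrent with each part its own library and 1 for ovary against brain with DESeq2, neither in the shared set. With a number left out, calls ran from 0 to 2 for lead-in against untreated (2 without number 13, 1 without number 8), from 0 to 1 for trametinib against untreated (1 without number 13), and stayed at 0 for concurrent against trametinib, lead-in combination against concurrent and ovary against brain. In brain, where this leaves a treatment with 1 number, that number is assumed to vary like the others. The paired fit of ovary against brain, with the number as a replicate block, made 0 calls, and 5 of the 74 shared clonotypes were then at an unadjusted p under 0.05 (11 of all 363).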
